A study of Homo sapiens with 6 samples.

Results

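The interleukin-1 ligands and receptors are 9 genes, chosen by name from the 58825 genes of the deposited tables. IL1R2 was included because of its difference between the groups compared here, so its values are given as a description without a test. The other 8 genes are its relatives, namely the receptors IL1R1, IL1RL1 and IL18R1, the accessory receptor IL1RAP, the ligands IL1A, IL1B and IL18, and the antagonist IL1RN. RNA-seq was performed on NCI-H460, a human lung cancer cell line, after lentiviral infection with a hairpin RNA and stable expression of it. The control cells (NC-shRNA, 3 libraries) carried a hairpin that the labels describe as directed against GFP, and the PRMT5-shRNA cells (3 libraries) carried one directed against PRMT5, an arginine methyltransferase. Both groups came from the same line. The study designed several PRMT5 hairpins and the labels do not say which was sequenced, so the loss of PRMT5 and any other action of that hairpin cannot be told apart. The study calls the libraries biological replicates. Stable PRMT5 knockdown cells were selected with puromycin, and the study does not say whether the libraries came from separate infections. What the spread between libraries covers is therefore not known.

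Interleukin-1 alpha and beta bind IL1R1, which then recruits IL1RAP, and the joined cytoplasmic TIR domains of this pair recruit MYD88 and IRAK kinases and activate NF-kappaB and MAP kinases. IL1R2 binds the same ligands and can also recruit IL1RAP, but it lacks a TIR domain and does not signal, and for this it is known as a decoy receptor. IL1RN occupies IL1R1 without signalling, whereas IL1RL1 (the receptor of interleukin-33) and IL18R1 (a receptor of interleukin-18) are related signalling receptors that lie beside IL1R1 and IL1R2 in 1 gene cluster.

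Total counts ranged from 53531257 to 70518401 per library, and 20295 genes had enough counts to be tested. PRMT5 itself had 143, 127 and 128 CPM (counts scaled to library size by edgeR's TMM factors) in NC-shRNA and 45.8, 45.6 and 38.3 CPM in PRMT5-shRNA libraries. Its log2 fold change was -1.62 (SE 0.0943, adjusted p = 0.0063, edgeR quasi-likelihood test, Benjamini-Hochberg over all genes tested), and its adjusted p was 0.144 under a replicate block, a fit that adds the replicate number as a term. Cytokeratin genes of epithelial cells were abundant in all 6 libraries, with a summed level of 344 to 361 FPKM (fragments per kilobase of transcript, scaled to library size) over 6 epithelial markers in NC-shRNA and 318 to 329 FPKM in PRMT5-shRNA cells. Nearly all of this came from 4 keratins, and the epithelial adhesion genes EPCAM (0.32 to 0.52 FPKM) and CDH1 (0.10 to 0.30 FPKM) were close to absent. The labels call the line an adenocarcinoma, but the 6 adenocarcinoma markers summed to at most 0.23 FPKM and the surfactant genes SFTPA1 and SFTPD had 0 counts. IL1R2 is a known transcript of neutrophils and macrophages. Of 10 neutrophil markers, 7 had 0 counts in every library, and the summed 36.5 to 38.7 FPKM in NC-shRNA and 29.9 to 33.8 FPKM in PRMT5-shRNA cells came from S100A8 and S100A9, which epithelial cells also express. The macrophage list summed to 6.46 to 8.74 FPKM in NC-shRNA and 6.43 to 7.56 FPKM in PRMT5-shRNA cells, with CD163, AIF1 and TYROBP at 0. Most of this sum came from CD68 (5.05 to 7.08 FPKM over the 6 libraries) and CD14 (0.65 to 1.5 FPKM). Its member LYZ, at most 0.54 FPKM, had 65, 79 and 42 counts in NC-shRNA and 35, 0 and 0 counts in PRMT5-shRNA libraries. Of the 5 macrophage markers tested, 2 had a log2 fold change below 0, LYZ (-2.15, SE 1.38) and CD68 (-0.24). The other 3 lay above 0, namely CD14 (0.55), CSF1R (0.64) and MRC1 (0.25). The T cell list summed to at most 0.24 FPKM, with 6 of its 10 markers at 0. Whether the differences in these marker levels had a part in the results was not tested.

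IL1R2 (ENSG00000115590) spans bases 101991844 to 102028544 of chromosome 2 (plus strand, GRCh38, GENCODE release 29), with 9 annotated transcripts of which 4 are coding. Its longest coding sequence has 398 codons, against 569 for IL1R1, 556 for IL1RL1, 541 for IL18R1 and 687 for IL1RAP. RefSeq promoter windows, from 250 bases before to 50 bases after an annotated start, were found for 8 of the 9 genes. Both IL1R2 windows are shown (GRCh38.p14, plus strand, 5′ to 3′), because IL1R2 is the member whose transcript differed most, and the capitals mark a TATAAA match.
IL1R2 promoter 1, chr2:101991710-101992009: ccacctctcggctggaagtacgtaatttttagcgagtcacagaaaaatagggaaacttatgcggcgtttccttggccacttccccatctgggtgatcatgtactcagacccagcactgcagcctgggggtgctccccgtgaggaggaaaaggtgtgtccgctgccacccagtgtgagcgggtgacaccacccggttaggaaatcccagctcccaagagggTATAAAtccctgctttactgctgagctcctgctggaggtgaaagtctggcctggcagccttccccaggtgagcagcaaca
IL1R2 promoter 2, chr2:101998711-101999010: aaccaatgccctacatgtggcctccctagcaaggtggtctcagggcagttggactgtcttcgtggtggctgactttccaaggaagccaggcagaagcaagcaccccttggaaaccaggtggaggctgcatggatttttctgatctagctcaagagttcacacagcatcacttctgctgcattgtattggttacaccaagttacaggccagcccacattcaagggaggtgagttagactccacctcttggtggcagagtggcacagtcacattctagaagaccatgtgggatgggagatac

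The match TATAAA begins at base 221 of the 300 bases of the first window, and the second window has none. Of 35116 promoter windows of the same length, 11.5% hold this motif on either strand. The first IL1R2 window has 9 CpG dinucleotides and the second has 1, against a median of 14 (quartiles 4 and 28) over all windows. The other cluster receptors varied, with 1 CpG in each IL1RL1 window, 29 and 16 in those of IL18R1, and 4 to 40 in the 4 windows of IL1R1. Neither IL1R2 window held the AP-1 motif TGANTCA, the cAMP response element TGACGTCA or the NF-kappaB consensus, which were searched on both strands and occur in 7.71%, 1.85% and 5.91% of all windows. Only full matches were counted, so a stretch that differs from a motif by 1 base would be missed. On either strand, TATAAA was also found in 1 window each of IL1R1, IL1RL1, IL1A and IL1RN, in that of IL1RL1 at base 222. The IL1R1 matches were only the reverse complement, TTTATA. Among the other members, TGANTCA was found in both IL1A windows, in 1 of the 2 IL1RL1 windows and in 1 of the 3 IL1RN windows. A match is a description of the letters and was not measured as a site.

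The decoy receptor IL1R2 had an estimated 617, 586 and 531 counts in NC-shRNA replicates 1 to 3, and 16, 37 and 27 counts remained in PRMT5-shRNA replicates 1 to 3. All 3 PRMT5-shRNA libraries were far below all 3 NC-shRNA libraries, and the lowest count was in PRMT5-shRNA replicate 1. Groups that did not overlap in this direction were seen for 10.7% of all genes tested. In FPKM the levels were 2.53, 2.38 and 2.46 in NC-shRNA and 0.08, 0.15 and 0.14 in PRMT5-shRNA libraries. The mean CPM in PRMT5-shRNA cells was 4.93% of that in NC-shRNA cells, a log2 fold change of -4.33 (SE 0.237). It ranked 13 from the lowest log2 fold change among the 20295 genes tested, and only 5 of the genes below it had a mean over 1 CPM. The spread between libraries was small in NC-shRNA cells (SD 0.0653 on the log2 CPM scale, n = 3) and larger in PRMT5-shRNA cells (SD 0.416, n = 3), where few counts were left. Low counts gathered at multiples of 4, with 1214 to 1319 genes at exactly 4 counts per library, against 283 to 546 at 3 or at 5 counts, and the sources used here do not say why, so a count is not read as 1 fragment. In bulk RNA, fewer cells that express IL1R2 and less IL1R2 RNA per cell cannot be told apart.

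IL1R1, the signalling receptor of interleukin-1, had 2.22, 1.05 and 2.50 FPKM in NC-shRNA and 2.80, 2.68 and 2.54 FPKM in PRMT5-shRNA libraries. The 3 PRMT5-shRNA libraries were alike, whereas NC-shRNA replicate 2 was well below the other NC-shRNA libraries. The groups narrowly did not overlap in FPKM, and they overlapped in CPM. The log2 fold change was 0.42 (SE 0.295, edgeR quasi-likelihood adjusted p = 0.60), and without NC-shRNA replicate 2 it was 0.12. An exact two-sided permutation test of log2(FPKM + 1) gave p = 0.10, the smallest value that 3 libraries against 3 can give.

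IL1RAP, the accessory chain shared by several receptors of the family, had 0.87, 0.99 and 1.09 FPKM in NC-shRNA and 1.14, 1.01 and 1.11 FPKM in PRMT5-shRNA libraries. Its groups overlapped, and its log2 fold change was 0.09 (SE 0.112, edgeR adjusted p = 0.79). IL1RL1 had 7.69, 8.28 and 8.72 FPKM against 8.47, 6.99 and 8.38 FPKM. Its libraries overlapped as well, with a log2 fold change of -0.11 (SE 0.0889, edgeR adjusted p = 0.654). IL18R1 had 5.98, 7.27 and 8.32 FPKM against 8.23, 7.29 and 8.02 FPKM, with a log2 fold change of 0.07 (SE 0.116, edgeR adjusted p = 0.839). IL1RL1 and IL18R1 overlap on the same strand, so their reads may have been divided between them by the authors' counting. IL1RAP also overlaps 3 annotated noncoding genes on its own strand, and IL1R1 lies opposite the antisense gene IL1R1-AS1, which had 0 counts.

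**Figure D1:**
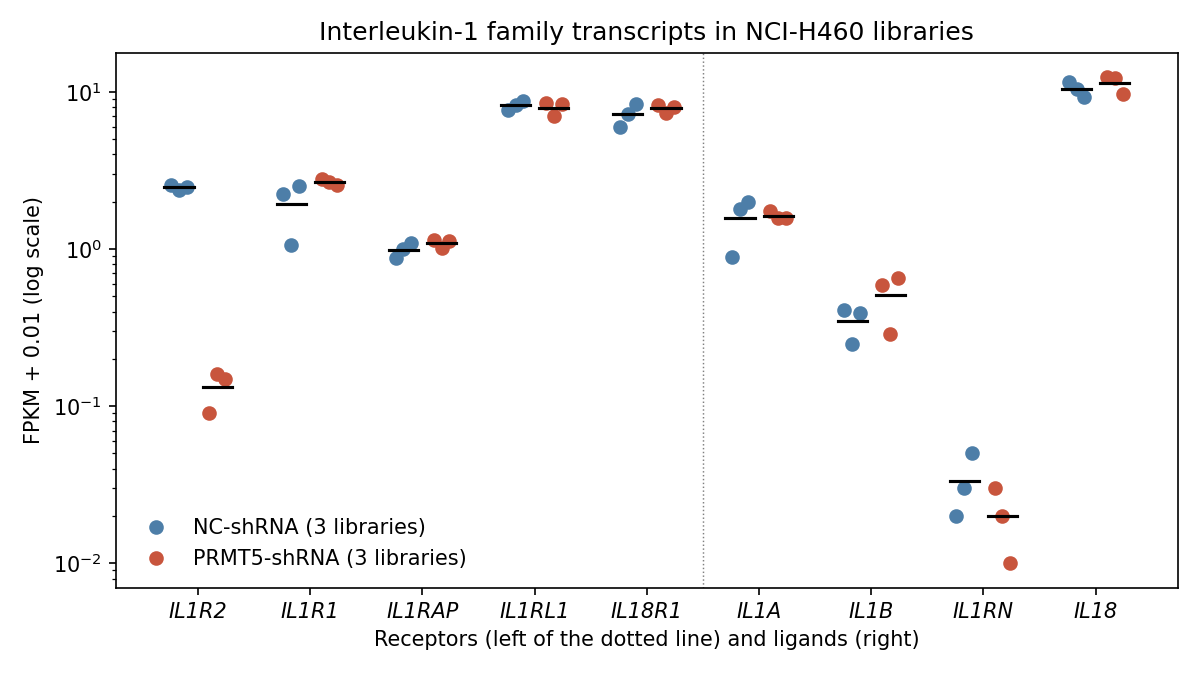
Level of the 9 interleukin-1 genes in each NC-shRNA (blue) and PRMT5-shRNA (red) library. The vertical axis is FPKM + 0.01 on a log scale, points are single libraries (n = 3 per group), and black lines are group means. IL1R2 was between 2.38 and 2.53 FPKM in NC-shRNA and between 0.08 and 0.15 FPKM in PRMT5-shRNA libraries, whereas the groups of the other genes overlapped or, for IL1R1, lay side by side.

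Of the ligands, IL18, an interferon-gamma-inducing cytokine that epithelial cells make constitutively, was the highest of all 9 genes. It had 11.54, 10.46 and 9.28 FPKM in NC-shRNA and 12.39, 12.32 and 9.72 FPKM in PRMT5-shRNA libraries. The log2 fold change of IL18 was 0.08 (SE 0.138, edgeR adjusted p = 0.853). IL1A, a ligand that acts from damaged cells without the need of cleavage, had 0.88, 1.80 and 1.99 FPKM against 1.73, 1.57 and 1.57 FPKM. NC-shRNA replicate 1 was the low library here, and the PRMT5-shRNA libraries lay within the NC-shRNA range. The log2 fold change of IL1A was 0.01 (SE 0.286, edgeR adjusted p = 0.993), and it was -0.26 without NC-shRNA replicate 1.

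IL1B, a ligand that is made as a precursor and cleaved by caspase-1, was low, with 105, 64 and 87 counts in NC-shRNA and 115, 73 and 135 counts in PRMT5-shRNA libraries. The groups overlapped because PRMT5-shRNA replicate 2 was close to the NC-shRNA level, and the log2 fold change was 0.50 (SE 0.364, edgeR adjusted p = 0.612). Without that library it was 0.78 (edgeR adjusted p = 0.453), past an unadjusted threshold of 0.05. IL1RN, the receptor antagonist, had 4, 5 and 10 counts in NC-shRNA and 4, 4 and 0 counts in PRMT5-shRNA libraries. These counts were too low to be tested, and a difference was not detectable at this depth.

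Among the 7 members other than IL1R2 that could be tested, 0 passed an adjusted p of 0.05 by edgeR, where 0.069% of all genes did. By DESeq2 0 passed, 0 had an unadjusted edgeR p under 0.05, where 12.8% of all genes did, and 0 had groups that did not overlap in CPM, where 21.7% of all genes did. Their median log2 fold change was 0.08 with 6 above 0 and 1 below, beside a median of 0.01 over all genes tested. With 7 genes, no difference from the background was read from these counts. The spread between libraries sets what could be seen, and it was largest for IL1R1 and IL1A in NC-shRNA cells (SD 0.676 and 0.601 on the log2 CPM scale, n = 3) and for IL1B in PRMT5-shRNA cells (SD 0.622, n = 3).

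The order of the 9 genes by mean log2(FPKM + 1) was read within each group, since only a level per length can be compared between genes. The values beside the genes are mean FPKM. In NC-shRNA cells it ran IL18 (10.4 FPKM), IL1RL1 (8.23), IL18R1 (7.19), IL1R2 (2.46), IL1R1 (1.92), IL1A (1.56), IL1RAP (0.983), IL1B (0.34) and IL1RN (0.0233). The libraries of neighbours in this order overlapped for IL1RL1 and IL18R1 and for each step from IL1R2 to IL1RAP. In PRMT5-shRNA cells IL1R2 was in position 8 of 9, between IL1B (0.5 FPKM) and IL1RN (0.01 FPKM), and did not overlap either. The remaining genes kept their order, and only IL1RL1 (7.95 FPKM) and IL18R1 (7.85 FPKM) overlapped.

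IL1R2 was also set against its relatives within each library, where a factor that scales a whole library cancels. The ratio of IL1R2 to IL1R1 in FPKM was 1.14, 2.27 and 0.984 in NC-shRNA and 0.0286, 0.056 and 0.0551 in PRMT5-shRNA libraries. Decoy and signalling receptor transcripts were thus of similar abundance in control cells, and the mean log2 ratio differed by -4.94 in PRMT5-shRNA cells. The ratio of IL1R2 to IL1RAP, the chain that both receptors can bind, was 2.91, 2.4 and 2.26 in NC-shRNA and 0.0702, 0.149 and 0.126 in PRMT5-shRNA libraries. These ratios hold the value of IL1R2 that led to its choice, so they carry no test. The ratio of IL1R1 to IL1RAP, which does not hold it, was 2.55, 1.06 and 2.29 against 2.46, 2.65 and 2.29 (exact two-sided permutation test, p = 0.50). The ratio of IL1R1 to IL1RL1 was 0.289, 0.127 and 0.287 against 0.331, 0.383 and 0.303, and these groups did not overlap (mean log2 difference 0.62, exact permutation p = 0.10, two-sided, the smallest possible).

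**Figure D2:**
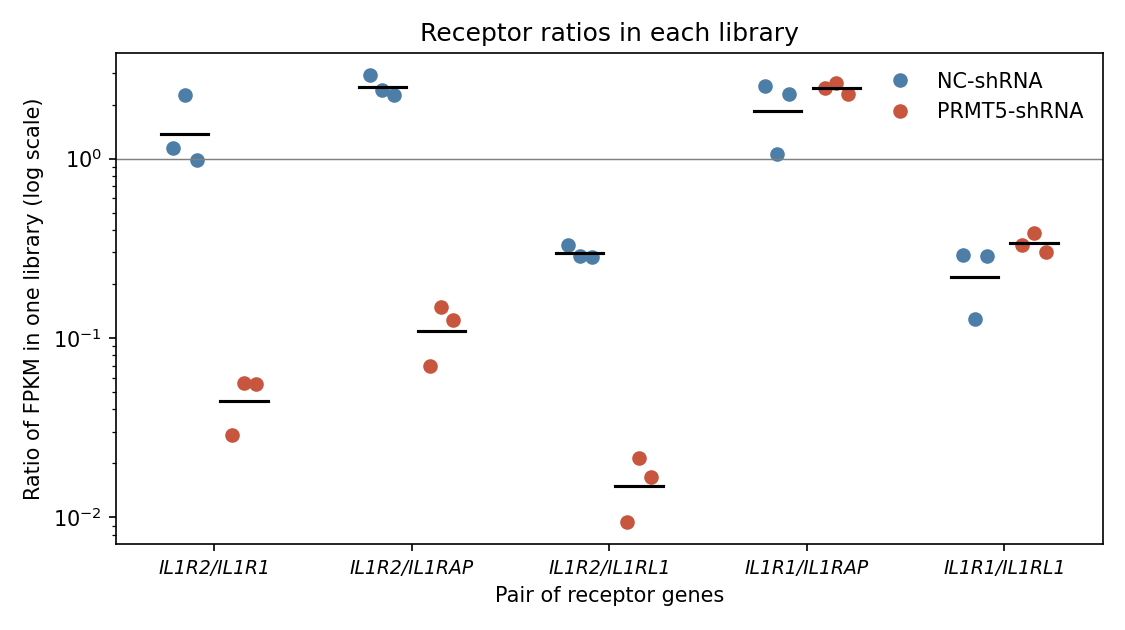
Ratio of FPKM between pairs of receptor genes in each library, on a log scale, with NC-shRNA in blue and PRMT5-shRNA in red (n = 3 per group) and black lines at the mean log ratio. The 3 ratios with IL1R2 on top do not overlap between the groups, with IL1R2 to IL1R1 between 0.984 and 2.27 in NC-shRNA and at most 0.056 in PRMT5-shRNA libraries, the IL1R1 to IL1RAP ratios overlap, and the IL1R1 to IL1RL1 ratios, at most 0.289 in NC-shRNA and at least 0.303 in PRMT5-shRNA libraries, do not.

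The neighbours of IL1R2 on chromosome 2 were then compared. IL1R1 begins 36000 bases beyond the end of IL1R2, MAP4K4, a kinase gene, ends 97155 bases before its start, and the long noncoding LINC01127, which ends 4677 bases before it, had 0 counts in all libraries. MAP4K4 had 7079, 7764 and 7269 counts in NC-shRNA and 6180, 7801 and 7485 in PRMT5-shRNA libraries (log2 fold change 0.09, SE 0.0804). IL18RAP, the accessory chain of the interleukin-18 receptor, had 160, 195 and 134 against 152, 121 and 137 counts (log2 fold change -0.09, SE 0.23). IL1RL2, the receptor of interleukin-36, had at most 8 counts and could not be tested.

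Of the 16 protein-coding genes of the cluster and its flanks listed by name, 13 were tested and 0 passed an adjusted p of 0.05 by edgeR or by DESeq2, a threshold that 0.069% of all genes passed. Their log2 fold changes ranged from -0.19 (RPL31, a ribosomal protein gene) to 0.42 (IL1R1), with a median of -0.05. TBC1D8 was the only one with an unadjusted edgeR p under 0.05, where 12.8% of all genes were, with a log2 fold change of 0.19 (SE 0.052, adjusted p = 0.245). CNOT11, RNF149, CREG2, SLC9A2, MFSD9 and TMEM182 lay between -0.16 and 0.10, and RFX8 and SLC9A4 had 0 counts. Within 1000000 bases on either side, a window added after the data were seen, 36 other genes of any type were in the tables, 19 were tested and 0 passed an unadjusted p of 0.05 with a fold change over 1.5, where 3.82% of all genes did. Here the log2 fold changes ranged from -0.39 to 0.93, and the ends belonged to a pseudogene and a sense intronic transcript. The IL1R2 change of -4.33 lay outside the range of the tested genes around it. IL1R2 was chosen for its difference, so this is a description and not a test.

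**Figure D3:**
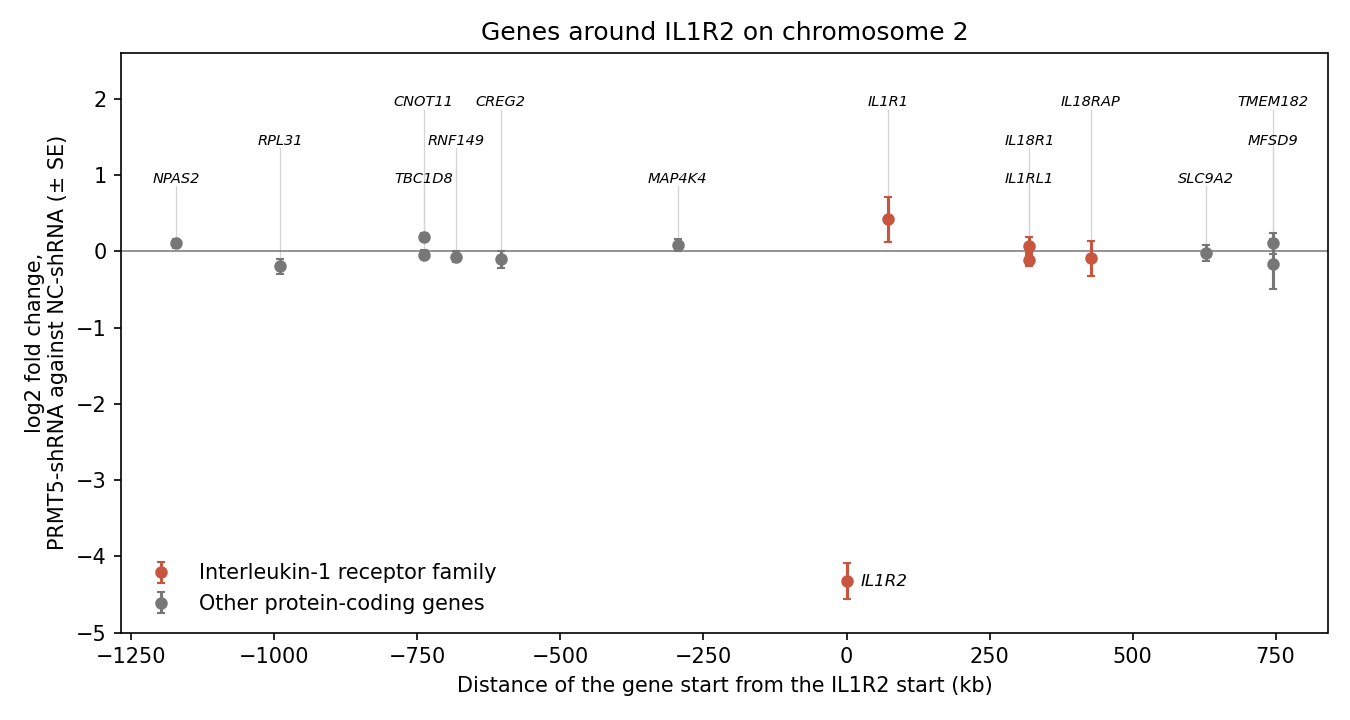
Log2 fold change (PRMT5-shRNA against NC-shRNA, bars ± SE) of the tested protein-coding genes within 1000000 bases of IL1R2, against the distance of each gene's start from the start of IL1R2 in kilobases. Receptors of the interleukin-1 family are in red and other genes in grey. IL1R2 lies at -4.33 and the others between -0.19 and 0.42.

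Further members of the family were mostly absent. Of 13 other family genes, 5 had 0 counts everywhere (IL36A, IL36B, IL36G, IL36RN and IL1F10) and 5 were tested, of which 0 passed an adjusted p of 0.05 by edgeR or by DESeq2, and 0 an unadjusted p of 0.05, where 0.069% and 12.8% of all genes did. IL33, the ligand of IL1RL1, had 0 counts in NC-shRNA and 15, 4 and 0 counts in PRMT5-shRNA libraries, which was too low to test. IL37 had 2 counts in 1 NC-shRNA library. SIGIRR, a receptor that restrains interleukin-1 signalling, had 318, 338 and 392 counts in NC-shRNA and 222, 468 and 130 in PRMT5-shRNA libraries. PRMT5-shRNA replicate 2 was the highest and replicate 3 the lowest of all 6, and the log2 fold change was -0.29 (SE 0.37, edgeR adjusted p = 0.786). IL18BP, the secreted binder of interleukin-18, had a log2 fold change of 0.12 (SE 0.136), and IL1RAPL1 and IL1RAPL2 had at most 31 counts.

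Genes that carry the signal from IL1R1 to NF-kappaB and MAP kinases were all expressed. All 28 were tested, and 0 passed an adjusted p of 0.05 by edgeR or by DESeq2, with 2 at an unadjusted edgeR p under 0.05 (backgrounds 0.069% and 12.8% of all genes). In CPM, the groups did not overlap for 4 higher and 1 lower gene, beside 11% and 10.7% of all genes tested. The 2 genes were IRAK2, a kinase of the receptor complex, with a log2 fold change of 0.36 (SE 0.143, edgeR adjusted p = 0.364), and UBE2N, a ubiquitin-conjugating enzyme, with -0.20 (SE 0.0682, edgeR adjusted p = 0.312). MYD88, the adaptor of the receptor, had 449, 433 and 379 counts in NC-shRNA and 371, 1635 and 451 in PRMT5-shRNA libraries. PRMT5-shRNA replicate 2 stood apart, since the other PRMT5-shRNA libraries had 6.80 and 7.84 CPM against 6.10 to 6.69 CPM in NC-shRNA cells. The log2 fold change of MYD88 was 0.9995 (SE 0.461, edgeR adjusted p = 0.42). PELI1, an E3 ligase, had 0.28 (SE 0.148). The median over the 28 genes was 0.03.

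Of 15 inhibitors of the pathway, 12 were tested, 0 passed an adjusted p of 0.05 by edgeR or by DESeq2, and 2 had an unadjusted edgeR p under 0.05, where 12.8% of all genes did. The groups did not overlap in CPM for 3 inhibitors, all higher, beside 11% of all genes higher and 10.7% lower. With 12 genes tested, no difference from this background was read. The 2 at the unadjusted threshold were TNFAIP3, a deubiquitinase that restrains NF-kappaB (log2 fold change 0.19, SE 0.0764), and OTUD7B (0.16, SE 0.0678). NFKBIB had a log2 fold change of 0.36 (SE 0.185) and ZC3H12A, an RNase that degrades cytokine messages, one of 0.13 (SE 0.0729). Of 16 genes for processing and release of the ligands, 12 were tested, 0 passed an adjusted p of 0.05 by edgeR or by DESeq2, and 1 against the same 12.8% background, NEK7, had an unadjusted p under 0.05 (log2 fold change 0.22, SE 0.0901). MEFV, GSDMD and CASP8 had log2 fold changes of 0.67 (SE 0.40), 0.34 (SE 0.203) and 0.14 (SE 0.102). PYCARD, the adaptor that joins inflammasome sensors to caspase-1, had 0 counts in every library.

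Of 8 genes that release receptor ectodomains or govern that release, all tested, 1 was lower at an adjusted p of 0.05 by edgeR, where 0.0197% of all genes were. FRMD8, a binding partner of the iRhom proteins that stabilises the sheddase ADAM17 at the cell surface, had 29.2, 28.5 and 34.4 CPM in NC-shRNA and 13.5, 12.1 and 13.04 CPM in PRMT5-shRNA libraries. It fell, with a log2 fold change of -1.25 (SE 0.108, edgeR adjusted p = 0.0254), and was known to be among the called genes when the list was written. Without NC-shRNA replicate 1 or 2 or any 1 of the PRMT5-shRNA libraries its adjusted p was 0.0662 to 0.0857, with the replicate number as a block 0.177, and by limma without a filter 0.1. Of 16 alternatives, these 7 lost the call of FRMD8 and 9, DESeq2 among them, kept it. The other 7 genes lay between about 0 and 0.17, ADAM17 itself at 0.06 (SE 0.0823) and BACE1 at 0.09 (SE 0.0643).

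Of 33 genes that interleukin-1 is known to induce, 28 were tested. One, MMP1, rose at an adjusted p of 0.05 by edgeR, where 0.0493% of all genes did. DESeq2 called 2, MMP1 as higher and PTGES as lower, and the edgeR likelihood ratio test also called 2. At an unadjusted p under 0.05 with over 1.5-fold change, 3 were higher (10.7% of those tested, against 2.53% of all genes) and 0 were lower (against 1.29% of all genes). Without NC-shRNA replicate 1 or 3, in the limma fits and under the replicate block, the count was 1, MMP1, and without PRMT5-shRNA replicate 1 it was 2, with LCN2 lower (log2 fold change -0.65) beside MMP1. The list was written with earlier results known. MMP1, interstitial collagenase, had 19, 34 and 12 counts in NC-shRNA and 192, 276 and 244 in PRMT5-shRNA libraries, a log2 fold change of 3.58 (SE 0.349, edgeR adjusted p = 0.0341). Without NC-shRNA replicate 1 or any 1 of the PRMT5-shRNA libraries its adjusted p was 0.0926 to 0.107, with the replicate number as a block 0.273, and by limma without a filter 0.0511. Of 16 alternatives, these 6 lost the call of MMP1 and 10, DESeq2 among them, kept it. IL11, a cytokine of the interleukin-6 family, had a log2 fold change of 0.996 (SE 0.35, edgeR adjusted p = 0.32), and CCL2, a monocyte chemokine, one of 1.496 (SE 0.593, edgeR adjusted p = 0.364), both from at most 94 counts per library.

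The median log2 fold change of the 28 induced genes was 0.13, with 19 above 0 and 9 below. At an unadjusted edgeR p under 0.05, 6 were higher and 2 lower, beside 6.54% and 6.29% of all genes. In CPM the groups did not overlap for 8 higher and 3 lower genes, beside 11% and 10.7% of all genes. IRAK2, TNFAIP3, ZC3H12A and NFKBIA are also on the signalling or inhibitor list, so the counts of these lists are not separate. Some of these induced genes, chosen after their values were seen and not by abundance alone, showed small differences in both directions. CXCL1 had 159, 152 and 149 CPM in NC-shRNA and 168, 182 and 184 CPM in PRMT5-shRNA libraries, and the groups did not overlap (log2 fold change 0.21, edgeR adjusted p = 0.265). PTGES, a prostaglandin E synthase, had 188, 158 and 152 CPM against 124, 123 and 114 CPM (log2 fold change -0.46, edgeR adjusted p = 0.181). By DESeq2 PTGES was lower at an adjusted p of 0.00313. CXCL8 and IL6 had log2 fold changes of 0.35 (SE 0.152) and 0.28 (SE 0.139), and their groups overlapped. NFKBIA, an early NF-kappaB target, was nearly level, at 77.1, 77.4 and 76.5 CPM against 74.8, 76.8 and 78.2 CPM.

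**Figure D4:**
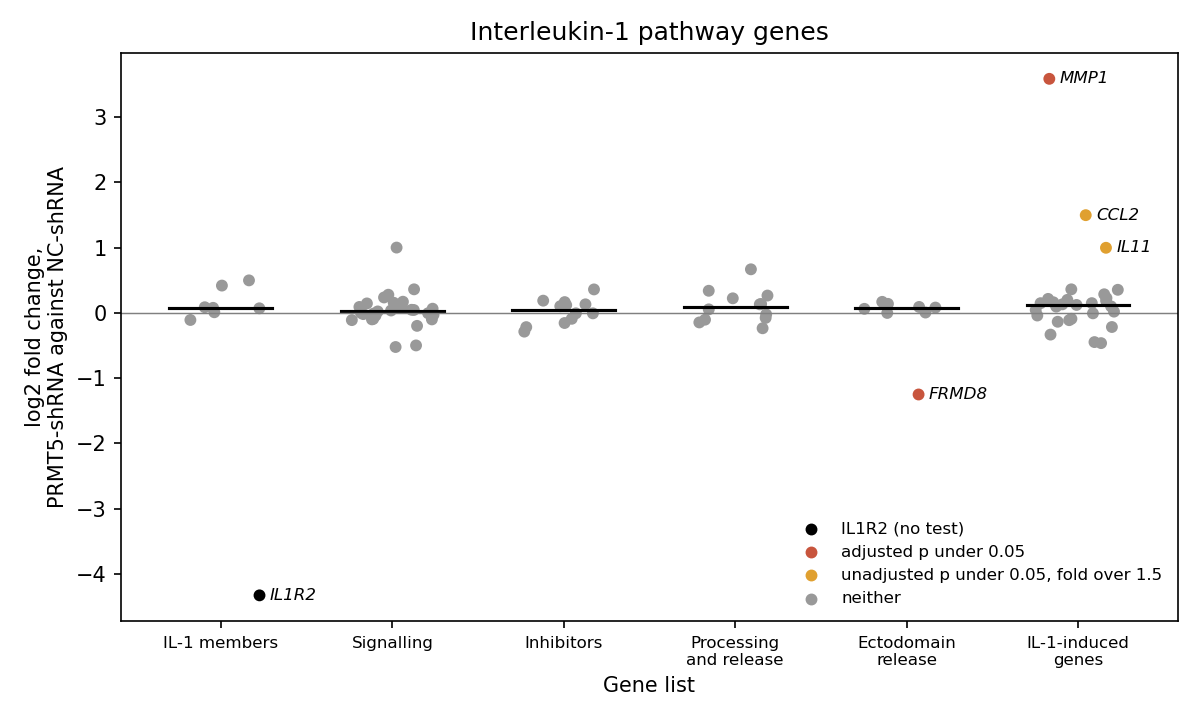
Log2 fold change (PRMT5-shRNA against NC-shRNA) of each tested gene in 6 lists around the interleukin-1 receptor, with black lines at list medians, which leave out IL1R2. Red points passed an adjusted p of 0.05 by edgeR, orange points only the looser thresholds, and IL1R2 (black) carried no test. Medians lie between 0.03 and 0.13 in every list, and FRMD8 (-1.25) and MMP1 (3.58) are the 2 genes past the adjusted threshold.

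The genes whose log2 CPM followed IL1R2 most closely over the 6 libraries were SON, FUBP1, CCT6A, SNHG29 and NPM1P46, with Pearson r of 0.996, 0.994, 0.993, 0.993 and 0.991. These are descriptions over libraries that share their group, so any gene that separates the 3 and 3 libraries scores high. SON, a splicing cofactor, had a log2 fold change of only -0.18 and FUBP1, a single-strand DNA-binding protein, one of -0.28, whereas the pseudogene NPM1P46 had 0 counts in PRMT5-shRNA cells. No other member followed this pattern closely. The r of the others with IL1R2 ranged from -0.54 for IL1R1 to 0.46 for IL1RL1.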

How the data were processed

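Condition and replicate number were taken from the sample labels. The authors deposited unnormalized estimated counts of each gene in each library and, in a separate table, FPKM values, which the authors scaled by gene length and sequencing depth. Per the submitters' processing notes, cutadapt 1.9, HISAT2 2.0.4, StringTie 1.3.4d and GRCh38 were used. The methods name GRCm38, a mouse build. The strand setting of counting is not given in the sources used here. Estimated counts were already whole numbers.

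Counts were scaled by TMM, filtered with filterByExpr and tested over 20295 genes with the quasi-likelihood test of edgeR 4.0.16 (R 4.3.3, Benjamini-Hochberg adjustment). A standard error is the log2 fold change divided by the square root of F. Members and lists were chosen with earlier results of these data known. Named genes were all members, family and cluster genes with counts, and the 5 genes most like IL1R2 in log2 CPM (prior count 2). From other lists, genes with over 1.5-fold change at an unadjusted p under 0.05 were named, or otherwise up to 4 with the smallest p. Further genes of these lists were named outside this rule, namely PYCARD, ADAM17, BACE1, CXCL1, PTGES, SAA1, CXCL5, CXCL8, IL6, NFKBIA, LCN2, IRAK4, RELA and MAPK14. Alternatives were DESeq2 1.42.0, the edgeR likelihood ratio test, other scalings, no filter, limma 3.58.1 on log2(FPKM + 1) or log2(FPKM + 0.1) with a minimum mean FPKM of 0.5 or none, the replicate number as a block, and each library left out. Fits were tested on simulated counts. Squared differences between 2 libraries of a group averaged at least 39.9 times binomial counting noise over genes, so none was treated as a duplicate. This takes 1 count as 1 fragment, so the multiple is not exact. Positions came from GENCODE release 29 and promoters from RefSeq (GRCh38.p14).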

Additional observations from a re-analysis of the deposited data

How the results depend on the processing

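IL1R2 was lower in PRMT5-shRNA cells in all 16 alternatives. Its log2 fold change was -1.62 by limma on log2(FPKM + 1), with or without the filter, and -3.53 on log2(FPKM + 0.1), where the pseudocount understates the change of a low gene, and -4.51 to -4.12 with a library left out. The log2 ratio of IL1R2 to IL1R1 moved from -4.94 to -4.07 with 0.1 added to both genes, and to between -5.17 and -4.57 with a library left out. The direction reversed for IL18R1 (-0.033 without NC-shRNA replicate 1, range -0.033 to 0.17 with a library left out), IL1A (-0.26 without NC-shRNA replicate 1 and -0.04 without PRMT5-shRNA replicate 1, range -0.26 to 0.20) and IL18 (-0.017 without NC-shRNA replicate 3, range -0.017 to 0.19). IL1R1, IL1RAP, IL1RL1 and IL1B kept their direction. No member other than IL1R2 passed an adjusted p of 0.05 in any alternative.

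Without PRMT5-shRNA replicate 2, the count with over 1.5-fold change at an unadjusted p under 0.05 went from 0 to 1 among members (IL1B), other family genes and inhibitors (both SIGIRR, log2 fold change -0.75), so the range with a library left out was 0 to 1 for each. For signalling genes it was 1 by DESeq2 and by the likelihood ratio test and 0 to 1 with a library left out (MYD88, or MAPK14 without PRMT5-shRNA replicate 2). For induced genes it was 1 instead of 3 in the 3 limma fits and 1 to 3 with a library left out. Of all genes, 14 passed an adjusted p of 0.05, against 530 by DESeq2, 184 by the likelihood ratio test, 5 by limma without the filter and 8 to 25 with a library left out. At the looser thresholds, 775 genes became 152 by limma on log2(FPKM + 1), with or without the filter, and 437 on log2(FPKM + 0.1), and 747 to 951 with a library left out.

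Replicate numbers did not pair the libraries, since same-numbered libraries had correlations of 0.00122, -0.0388 and 0.0640 in their deviations over 10487 genes. With the replicate number as a block, 0 genes passed an adjusted p of 0.05 (2382 at an unadjusted p under 0.05), 1 induced gene passed the looser thresholds, the adjusted p was 0.273 for MMP1, 0.177 for FRMD8 and 0.144 for PRMT5, and IL1R2 stayed lower. Where not stated, the cause was not tested. Counts near 0, as for IL1RN and IL33, limit what these depths can show.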

Other observations

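Some single libraries stood apart in genes of the signalling list, chosen after their values were seen. IRAK4, the kinase next to MYD88, had 16.5 CPM in NC-shRNA replicate 3 and 5.53 to 6.90 CPM in the other 5 libraries. RELA, an NF-kappaB subunit, had 33.3 CPM in the same library and 46.7 to 66.2 CPM in the others. MAPK14, the p38 alpha kinase, had 41.4, 91.3 and 87.5 CPM in NC-shRNA and 35.8, 87.2 and 32.6 CPM in PRMT5-shRNA libraries, so that its levels were split within both groups. With 3 libraries per group, these values were not tested.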
